A study of Homo sapiens with 3 samples.

Results

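The genes described here are 10 known targets of YAP and the TEAD factors, namely CYR61 (also written CCN1), CTGF (also written CCN2), ANKRD1, AMOTL2, AJUBA, LATS2, AXL, F3, CRIM1 and NUAK2. They are a list of names, drawn up with earlier results of these data known, out of 52992 genes with summed transcripts, and all 10 were among the 20629 genes with enough reads to be tested. RNA came from TE5, an established human line of esophageal squamous cell carcinoma, taken 48 h after transfection. There were 2 libraries of cells given shKLF5, a short hairpin RNA construct against the zinc finger transcription factor KLF5, and 1 library of cells given a scrambled control, written scramble below. The shKLF5 libraries are numbered 1 and 2. Whether 2 hairpins, 2 cultures or 2 preparations of 1 culture stand behind these numbers is not stated. The p-values therefore rest on a spread that may be purely technical or may hold differences between hairpins. The single scramble library was assumed to vary as the shKLF5 libraries do, though it cannot hold differences between shKLF5 hairpins.

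YAP and its paralog TAZ (gene WWTR1) are transcription coactivators that do not bind DNA themselves and act mainly through the TEAD factors. The Hippo kinases phosphorylate them and hold them in the cytoplasm when cells are crowded or under low tension. Among the targets are secreted matrix proteins such as CYR61 and CTGF, and also LATS2 and AMOTL2, which act back on YAP as inhibitors. In squamous epithelium YAP is known as a factor of proliferating basal cells.

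The libraries were of nearly equal depth, with 33544752 and 32720563 estimated counts in shKLF5 libraries 1 and 2 and 33448976 in scramble. The targeted gene was lower in both shKLF5 libraries, with 37.2 and 44.0 CPM (counts relative to library size, scaled by edgeR's TMM factors) in libraries 1 and 2, against 316 CPM in scramble. KLF5 stood at a log2 fold change of -2.96 (SE 0.34). As these are bulk libraries, fewer cells of a type and less RNA per cell cannot be told apart. All 6 squamous markers on a list (TP63, KRT5, KRT6A, KRT14, DSG3 and SOX2) were detected in every library, and their summed level was 989 and 483 TPM (length-corrected levels) in shKLF5 libraries 1 and 2, against 3397 TPM in scramble. KRT5, at 514 and 188 TPM in shKLF5 libraries 1 and 2 against 2110.5 TPM in scramble, and KRT6A, at 248 and 208 TPM against 1011 TPM, held most of this sum. SOX2 was not lower in library 1 in this unit, with 113 and 30.04 TPM in shKLF5 libraries 1 and 2 against 81.5 TPM in scramble. Markers of other cell types were low: 6 fibroblast markers summed to 26.3 and 15.4 TPM in shKLF5 libraries 1 and 2 and 16.7 TPM in scramble, none of them at 0 in any library. In the same order 6 leukocyte markers summed to 2.36, 3.12 and 0.527 TPM, with 2 at 0 in scramble. The 3 endothelial markers in the tables summed to 1.09, 1.36 and 0.324 TPM, with 2 at 0 in scramble, and 4 glandular markers to 0.180, 0.143 and 0.0616 TPM, with 1, 2 and 3 at 0. The part of these differences in the results below was not tested.

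The 10 genes did not move one way. By value, 6 of them were higher in both shKLF5 libraries than in scramble (ANKRD1, CTGF, NUAK2, LATS2, CYR61 and AMOTL2), F3 and AJUBA were lower in both, and AXL and CRIM1 lay above scramble in library 1 and below it in library 2. Of all genes tested, 37.9% were higher in both libraries, 36.5% lower in both and 25.5% opposite. The median log2 fold change was 0.64 over the 10 genes and 0.04 over all genes tested. Without library 2 the median of the 10 genes was 0.41 and without library 1 it was 0.34. With edgeR's quasi-likelihood test 0 of the 10 genes had a Benjamini-Hochberg adjusted p under 0.05, as was the case for 0 of 20629 genes (0%). Without adjustment, p was under 0.05 for 1 of the 10 on the higher side (ANKRD1) and 2 on the lower side (F3 and AJUBA), while 9.18% of all genes tested reached this, 5.68% on the higher side and 3.5% on the lower side. DESeq2, run as an alternative, called ANKRD1 higher and F3 lower, and it called 116 of the 17029 genes to which it gave an adjusted p (0.681%), 0.376% as higher and 0.305% as lower. edgeR's legacy fit called 0 of the 10 and 21 of all genes (0.102%).

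**Figure D1:**
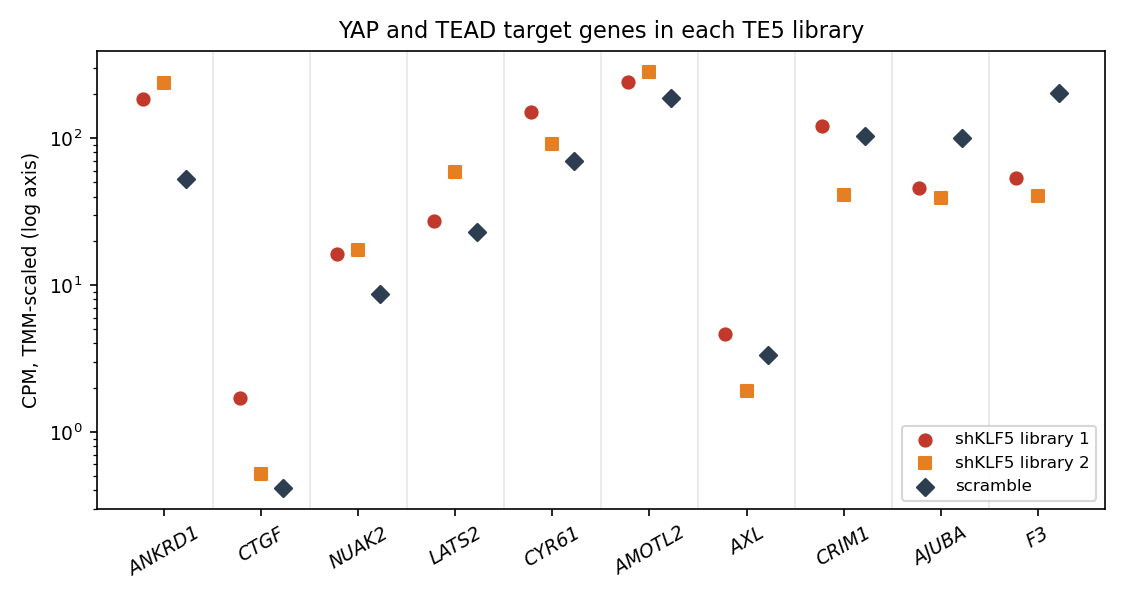
TMM-scaled CPM on a log axis for each of the 10 genes in shKLF5 library 1, shKLF5 library 2 and scramble, ordered by fold change; each point is 1 library. ANKRD1 stands well above scramble in both shKLF5 libraries and F3 well below it, while AXL and CRIM1 have scramble between the shKLF5 libraries.

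ANKRD1 encodes an ankyrin repeat protein of the nucleus and sarcomere that is induced by stretch in heart muscle, and it was the gene with the clearest higher level. ANKRD1 (ENSG00000148677; GRCh38 chromosome 10, 90912096 to 90921276, minus strand) had 6662 and 8273 counts in shKLF5 libraries 1 and 2, against 1409 in scramble, all of them on its only transcript. This was 186 and 238 CPM in shKLF5 libraries 1 and 2, against 53.0 CPM in scramble, so both shKLF5 values lay above scramble by more than they differed from each other. Library 1 was 3.51-fold and library 2 was 4.49-fold above scramble. The log2 fold change of ANKRD1 was 1.999 with SE 0.40 and a 95% interval of 1.08 to 2.92, with an adjusted p of 0.335 by edgeR's quasi-likelihood test and 0.00959 by DESeq2. Over the alternatives its adjusted p ran from 0.00959 to 0.685.

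NUAK2, a kinase related to AMPK that acts on actomyosin tension, was nearly equal in the 2 shKLF5 libraries. NUAK2 (ENSG00000163545; chromosome 1, 205302059 to 205321791, minus strand) had 585 and 599 counts in shKLF5 libraries 1 and 2, against 232 in scramble, or 16.3 and 17.2 CPM against 8.73 CPM. It was 1.87-fold and 1.97-fold higher in libraries 1 and 2. NUAK2 had a log2 fold change of 0.94 with SE 0.43 and a 95% interval of -0.06 to 1.94 and did not pass edgeR's quasi-likelihood test (adjusted p = 0.56).

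CYR61 and CTGF encode secreted proteins of the CCN family that bind integrins and matrix, and they are the most used readouts of YAP activity. CTGF was nearly silent in TE5, while CYR61 was well expressed. CYR61 (ENSG00000142871; chromosome 1, 85580761 to 85583962, plus strand) had 5397 and 3157 counts in shKLF5 libraries 1 and 2, against 1844 in scramble, which is 151 and 90.8 CPM against 69.4 CPM. CTGF (ENSG00000118523; chromosome 6, 131948176 to 131951373, minus strand) had only 61 and 18 counts in shKLF5 libraries 1 and 2, against 11 in scramble. Both genes were higher in library 1 than in library 2, CYR61 by 1.66-fold and CTGF by 3.29-fold. Against scramble, CYR61 was 2.17-fold higher in library 1 and 1.31-fold higher in library 2. The CTGF count of library 2 has an exact Poisson interval of 10.7 to 28.5 counts at 95%, which overlaps that of scramble (5.49 to 19.7). Such intervals are on counts before scaling and cover counting error only, and the difference between these libraries was not tested. The log2 fold change of CYR61 was 0.80 with SE 0.43 and a 95% interval of -0.19 to 1.78. For CTGF it was 1.42 with SE 0.91 and a 95% interval of -0.70 to 3.53. The adjusted p by edgeR's quasi-likelihood test was 0.599 for CYR61 and 0.661 for CTGF.

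LATS2 and AMOTL2 act back on the coactivators. LATS2 is a Hippo kinase that phosphorylates YAP and TAZ, and AMOTL2, of the angiomotin family, binds YAP at cell junctions. LATS2 (ENSG00000150457; chromosome 13, 20973032 to 21061547, minus strand) had 972 and 2050 counts in shKLF5 libraries 1 and 2, against 611 in scramble, or 27.1 and 59.0 CPM against 23.0 CPM. Library 2 stood 2.57-fold above scramble and library 1 1.18-fold above it, and the 2.17-fold gap between the shKLF5 libraries was wider than the mean difference from scramble, which was 1.87-fold. Its log2 fold change was 0.91 with SE 0.52 and a 95% interval of -0.30 to 2.11. AMOTL2 (ENSG00000114019; chromosome 3, 134355874 to 134375479, minus strand) had 8648 and 9870 counts in shKLF5 libraries 1 and 2, against 4999 in scramble, or 241 and 284 CPM against 188 CPM, which put libraries 1 and 2 1.28-fold and 1.51-fold above scramble. The log2 fold change of AMOTL2 was 0.48 with SE 0.36 and a 95% interval of -0.35 to 1.31, the smallest among the 6 genes higher in both. Neither passed edgeR's quasi-likelihood test, with an adjusted p of 0.623 for LATS2 and 0.691 for AMOTL2.

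F3 encodes tissue factor, the membrane protein that starts blood coagulation, and it was the gene with the clearest lower level. F3 (ENSG00000117525; chromosome 1, 94529225 to 94541800, minus strand) had 1923 and 1406 counts in shKLF5 libraries 1 and 2, against 5422 in scramble. This was 53.7 and 40.4 CPM in shKLF5 libraries 1 and 2, against 204 CPM in scramble. Library 1 was 3.80-fold and library 2 was 5.04-fold below scramble, a difference well beyond that between the 2 libraries. The log2 fold change of F3 was -2.12 with SE 0.35 and a 95% interval of -2.93 to -1.30, a value lower than that of all but 0.54% of the genes tested. Its adjusted p was 0.313 by edgeR's quasi-likelihood test, 0.0716 by edgeR's legacy fit and 0.00452 by DESeq2, and over the alternatives it ran from 0.00452 to 0.685. All 4 annotated F3 transcripts were lower: F3-201, which codes for the 295 residues of the membrane form, had 1690 and 1176 counts in shKLF5 libraries 1 and 2, against 4523 in scramble. F3-202, whose coding sequence of 238 residues is that of the soluble spliced form, had 52.8 and 76.2 counts, against 139 in scramble.

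AJUBA, a LIM domain protein that binds and restrains the LATS kinases, was also lower in both libraries. AJUBA (ENSG00000129474; chromosome 14, 22971174 to 22982642, minus strand) had 1647 and 1363 counts in shKLF5 libraries 1 and 2, against 2664 in scramble, or 46.0 and 39.2 CPM against 100.2 CPM. It was 2.18-fold and 2.56-fold lower in libraries 1 and 2. For AJUBA the log2 fold change was -1.23 with SE 0.35 and a 95% interval of -2.04 to -0.43, and the adjusted p was 0.474 by edgeR's quasi-likelihood test and 0.403 by DESeq2.

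AXL and CRIM1 lay on opposite sides of scramble in the 2 shKLF5 libraries. AXL is the receptor tyrosine kinase for GAS6, and CRIM1 is a transmembrane protein with cysteine-rich repeats that binds bone morphogenetic proteins. CRIM1 (ENSG00000150938; chromosome 2, 36355926 to 36551135, plus strand) had 4312 and 1435 counts in shKLF5 libraries 1 and 2, against 2729 in scramble, or 120 and 41.3 CPM against 103 CPM, and was 2.92-fold higher in library 1 than in library 2. AXL (ENSG00000167601; chromosome 19, 41219203 to 41261766, plus strand) was low, with 165 and 66 counts in shKLF5 libraries 1 and 2, against 89 in scramble, and was 2.43-fold higher in library 1 than in library 2. Compared with scramble, CRIM1 was 1.17-fold higher in library 1 and 2.49-fold lower in library 2. AXL was 1.38-fold higher in library 1 and 1.76-fold lower in library 2. The log2 fold changes over both libraries, -0.35 for CRIM1 (SE 0.57) and -0.04 for AXL (SE 0.65), had intervals of -1.67 to 0.98 and -1.54 to 1.46. With library size alone in place of TMM both turned positive, to 0.09 for CRIM1 and 0.39 for AXL, against a median of 0.47 over all genes tested with that scaling. FEZ2, an opposite-strand gene that overlaps CRIM1, had 666 and 275 counts in shKLF5 libraries 1 and 2, against 623 in scramble. Where strand was not used, only reads from bases shared by transcripts of both genes cannot be told apart, and such bases were not measured. The antisense genes annotated at CTGF, LATS2, AXL and CRIM1 were at 0 counts in every library. On the same strand, the protein-coding gene AL132780.3 overlaps AJUBA, with 0 and 28 counts in shKLF5 libraries 1 and 2, against 0 in scramble. The pseudogene RPL39P5 overlaps AMOTL2 on the same strand, with 3 and 8 counts, against 3 in scramble. Use of strand would not separate such overlaps.

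**Figure D2:**
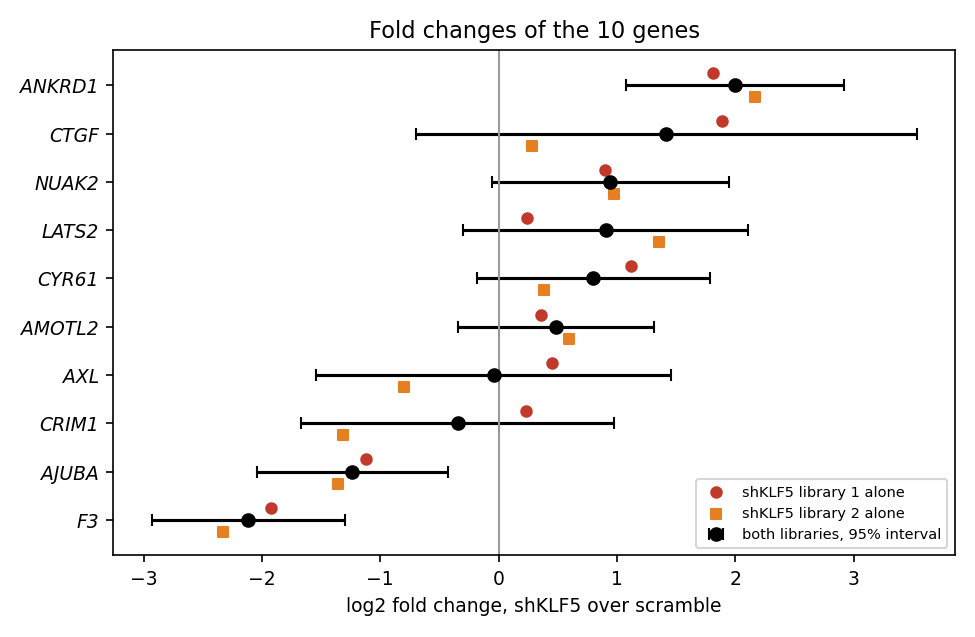
Log2 fold changes of the 10 genes, shKLF5 over scramble: black points are the estimates from both shKLF5 libraries with 95% confidence intervals, and coloured points are each shKLF5 library alone against scramble. The intervals of ANKRD1, AJUBA and F3 lie off 0, and the library values of CTGF, LATS2, AXL and CRIM1 lie farthest from each other.

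The order of the levels also differed between the groups. TPM, which corrects for transcript length and here carries no TMM scaling, was used to rank the genes within a library. In shKLF5 libraries 1 and 2 ANKRD1 came first with 123 and 146 TPM. CYR61 (89.2 and 50.5 TPM) and AMOTL2 (72.2 and 80.1 TPM) followed in an order that changed between the libraries. Then came F3 (36.7 and 26.0 TPM). CRIM1 (27.7 and 9.73 TPM), AJUBA (24.0 and 17.5 TPM) and LATS2 (6.09 and 13.0 TPM) followed in that order in library 1, while in library 2 AJUBA came before LATS2 and LATS2 before CRIM1. NUAK2 had 6.05 and 5.94 TPM, in library 1 nearly the level of LATS2. AXL (1.35 and 0.488 TPM) and CTGF (0.940 and 0.266 TPM) were last in both. In scramble F3 came first with 110 TPM, above AMOTL2 (41.6 TPM), AJUBA (32.8 TPM), CYR61 (28.6 TPM), ANKRD1 (25.1 TPM), CRIM1 (17.5 TPM), LATS2 (3.84 TPM), NUAK2 (2.31 TPM), AXL (0.628 TPM) and CTGF (0.163 TPM). ANKRD1 was thus ahead of F3 in both shKLF5 libraries and behind it in scramble. With 1 scramble library the spread of its order is unknown.

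Estimated counts can be moved between transcripts of a gene, so transcript values are less certain than gene values. In all of the genes but AMOTL2 the same transcript led in every library. In AJUBA the leading transcript AJUBA-201 had 1004 and 855 counts in shKLF5 libraries 1 and 2, against 1952 in scramble. AJUBA-202, which codes for the same number of residues (538) and starts further downstream, had 217 and 127 counts in shKLF5 libraries 1 and 2, against 4.20 in scramble. It went the other way from the gene as a whole and took 13.2% and 9.32% of the gene's counts in the shKLF5 libraries, against 0.158% in scramble. In AMOTL2 the counts were split between AMOTL2-201, with 5337 and 4941 in shKLF5 libraries 1 and 2, against 2186 in scramble, and AMOTL2-202, with 2654 and 4126 in shKLF5 libraries 1 and 2, against 2240 in scramble. AMOTL2-201 therefore held 61.7% and 50.1% of the gene's counts in the shKLF5 libraries and 43.7% in scramble, where AMOTL2-202 led with 44.8%. AXL-203, a transcript that starts inside the gene, had 21.5 counts in library 1 and 0 in library 2 and in scramble.

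**Figure D3:**
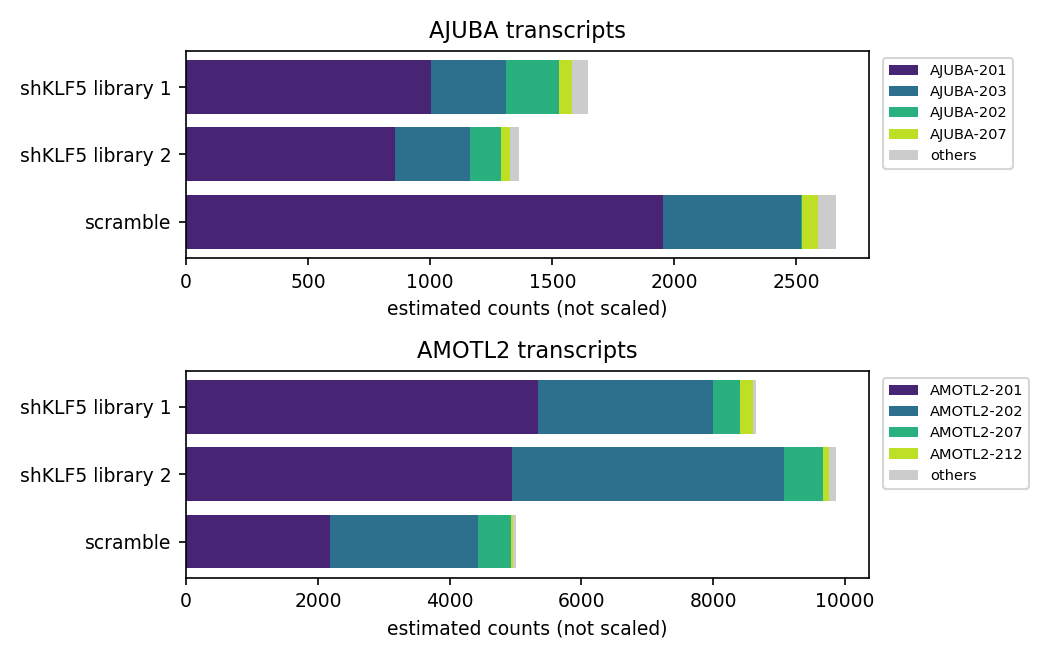
Estimated counts per transcript of AJUBA and AMOTL2, stacked, in shKLF5 library 1, shKLF5 library 2 and scramble, without scaling between libraries. AJUBA-202 is visible in both shKLF5 libraries and has 4.20 counts in scramble, and AMOTL2-201 is larger in both shKLF5 libraries than in scramble.

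The promoters of these genes are printed because TEAD factors bind the letters GGAATG, the MCAT core, on either strand. CTGF and ANKRD1 carry several copies just before their RefSeq start. RefSeq windows from 250 bases before to 50 bases after the transcript start (GRCh38.p14) were at hand for 8 of the 10 genes, all but CYR61 and CRIM1, with 11 windows in all since AMOTL2, AJUBA and AXL have a pair of starts each. GGAATG was found in 7 of the 11 windows, against 14% of the 35116 windows of the whole table. These windows belong to 7 of the 8 genes, F3 being the gene without it. The genes were listed as known TEAD targets, so this share is no independent result. CTGF held 3 copies, as did 0.128% of all windows counted at 3 or more, and ANKRD1 and NUAK2 held 2 copies each, with 1.37% of all windows at 2 or more. In the 6 windows below, read 5′ to 3′ along the gene, capitals mark GGAATG or its reverse complement, and in F3 they mark TGANTCA, the letters bound by AP-1.
CTGF, chr6:131951323-131951622, minus strand: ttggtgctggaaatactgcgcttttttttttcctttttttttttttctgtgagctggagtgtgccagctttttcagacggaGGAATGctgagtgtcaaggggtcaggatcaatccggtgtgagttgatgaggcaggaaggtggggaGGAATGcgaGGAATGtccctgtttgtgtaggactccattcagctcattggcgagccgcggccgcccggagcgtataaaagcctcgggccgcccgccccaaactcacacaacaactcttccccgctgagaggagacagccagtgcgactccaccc
ANKRD1, chr10:90921038-90921337, minus strand: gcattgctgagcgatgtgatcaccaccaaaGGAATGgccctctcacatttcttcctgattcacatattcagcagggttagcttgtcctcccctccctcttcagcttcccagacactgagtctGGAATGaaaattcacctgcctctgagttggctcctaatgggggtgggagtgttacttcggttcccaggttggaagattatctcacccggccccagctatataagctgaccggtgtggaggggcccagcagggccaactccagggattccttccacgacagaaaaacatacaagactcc
NUAK2, chr1:205321696-205321995, minus strand: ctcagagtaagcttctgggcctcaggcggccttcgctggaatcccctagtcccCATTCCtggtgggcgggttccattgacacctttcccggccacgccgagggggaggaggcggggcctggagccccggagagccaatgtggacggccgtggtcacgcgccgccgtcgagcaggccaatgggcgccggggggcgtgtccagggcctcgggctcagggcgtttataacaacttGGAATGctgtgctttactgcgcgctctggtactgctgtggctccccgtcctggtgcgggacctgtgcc
AMOTL2, chr3:134374398-134374697, minus strand: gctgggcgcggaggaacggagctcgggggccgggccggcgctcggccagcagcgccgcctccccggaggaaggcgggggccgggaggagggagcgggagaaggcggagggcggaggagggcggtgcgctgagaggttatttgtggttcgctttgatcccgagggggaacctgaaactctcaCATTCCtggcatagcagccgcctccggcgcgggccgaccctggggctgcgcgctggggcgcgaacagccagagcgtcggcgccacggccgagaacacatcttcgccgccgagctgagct
LATS2, chr13:21061537-21061836, minus strand: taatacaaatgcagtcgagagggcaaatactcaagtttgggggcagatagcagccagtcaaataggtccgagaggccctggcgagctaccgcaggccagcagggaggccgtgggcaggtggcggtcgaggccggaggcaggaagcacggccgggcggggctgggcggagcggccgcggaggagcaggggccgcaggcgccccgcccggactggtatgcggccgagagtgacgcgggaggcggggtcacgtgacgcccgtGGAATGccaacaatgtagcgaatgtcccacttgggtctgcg
F3, chr1:94541710-94542009, minus strand: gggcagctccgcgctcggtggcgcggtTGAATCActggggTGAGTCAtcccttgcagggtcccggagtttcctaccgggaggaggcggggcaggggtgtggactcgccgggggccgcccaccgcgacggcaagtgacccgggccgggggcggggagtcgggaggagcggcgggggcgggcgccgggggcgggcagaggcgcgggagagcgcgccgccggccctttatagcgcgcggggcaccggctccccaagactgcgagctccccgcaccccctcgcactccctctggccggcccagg

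Distances are from the RefSeq start. The GGAATG copies of CTGF began 169, 104 and 95 bases before it, and those of ANKRD1 220 and 128 bases before it. NUAK2 had copies at 197 and 18 bases before the RefSeq start, and AMOTL2 had a copy 69 bases before the start of AMOTL2-202. In LATS2 the copy lay at base 10 after the RefSeq start. The counted transcripts of ANKRD1 and NUAK2 start further upstream, at bases 90921276 and 205321791, so the nearer copy of each lies inside their span. The AMOTL2 copy lies inside the span of AMOTL2-201, which starts at base 134374594. The LATS2 copy lies before the start of LATS2-201, at base 21061547. For F3 the RefSeq start is that of F3-204, at base 94541759. The leading F3-201 starts further upstream, at base 94541800, so the F3 distances below are not distances from F3-201. Of the AJUBA windows only the downstream one held a copy. The start of this window lies beside that of AJUBA-204, a transcript at 0 counts in every library. The copy also lies inside the span of AJUBA-203, which starts at base 22977223. AJUBA-203 had 308 and 307 counts in shKLF5 libraries 1 and 2, against 565 in scramble. Of the AXL windows only the downstream one, at the start of AXL-203, held a copy. AP-1 matches were found in 2 of the 11 windows and in 7.71% of all windows. F3 held 2 of them, at 223 and 210 bases before the start, with 0.515% of all windows at 2 or more. ANKRD1 held 1 AP-1 match, between its GGAATG copies. The letters CCNCNCCC, bound by the KLF and SP families, were found in 9 of the 11 windows and in 56.2% of all windows, CTGF and the upstream AXL window being without them. F3 held 6 matches and the upstream AJUBA window 3, and 23.6% of all windows held 3 or more. The share of all windows with 6 or more was not counted. ANKRD1, LATS2 and each AMOTL2 window held 2 matches, with 36% of all windows at 2 or more. The downstream AJUBA window, the downstream AXL window and NUAK2 held 1. TATAAA, searched on both strands, was found in CTGF on the gene's strand and in F3 and NUAK2 on the other, and in 11.5% of all windows. The CArG box of SRF was found in none of the 11 windows and in 1.29% of all windows. A pair of CCNCNCCC matches overlap each other in F3 and in the upstream AJUBA window, and in AXL such a match overlaps GGAATG. These are matches of letters only, and no binding was measured in these files.

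**Figure D4:**
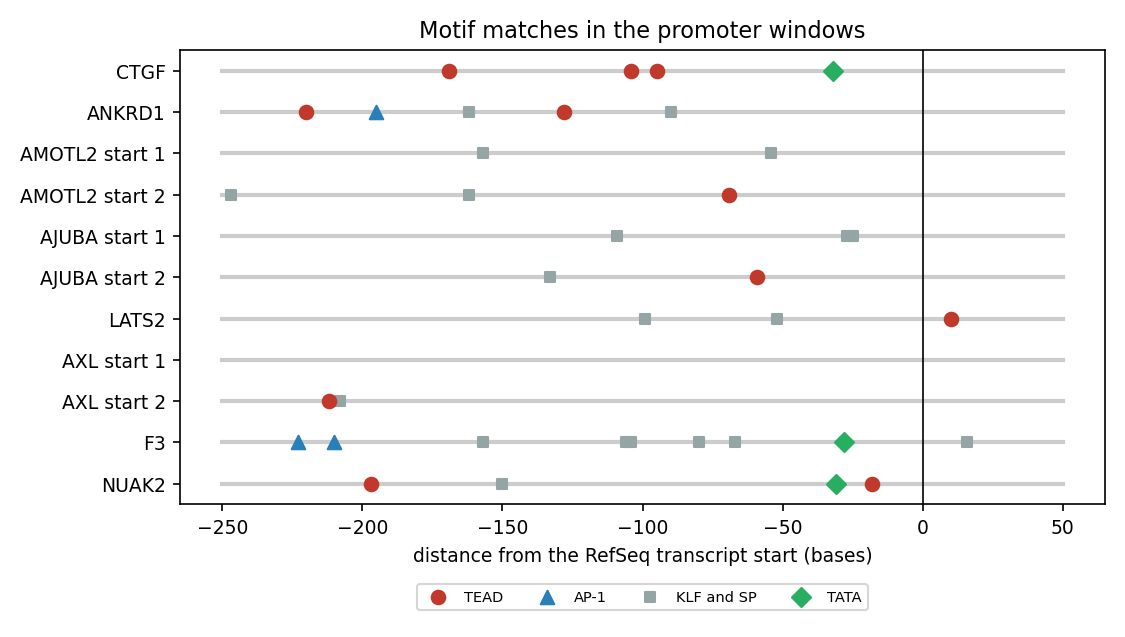
Positions of motif matches in the 11 RefSeq windows of 8 genes, in bases from the transcript start; each grey line is a window and each mark a match on either strand. Start 1 and start 2 are the upstream and downstream RefSeq starts of AMOTL2, AJUBA and AXL, and CTGF has the 3 GGAATG copies named in the text.

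Genes of the pathway itself lay on both sides of scramble. Among 11 genes of the coactivators, TEAD factors and cofactors, 10 were tested, of which 3 were higher in both shKLF5 libraries, 3 lower in both and 4 opposite, with a median log2 fold change of 0.04 beside 0.04 over all genes tested, and of -0.039 without library 1. YAP1 had 119 and 122 CPM in shKLF5 libraries 1 and 2, against 112 CPM in scramble, which gave a log2 value of 0.11 with SE 0.35 and a 95% interval of -0.69 to 0.91. WWTR1, which encodes TAZ, had 59.1 and 67.1 CPM in shKLF5 libraries 1 and 2, against 59.5 CPM in scramble, and a log2 fold change of 0.08 (SE 0.36). These intervals allow changes of either sign. TEAD1 was lower in both libraries by value, with 29.6 and 24.0 CPM in shKLF5 libraries 1 and 2, against 52.1 CPM in scramble, and a log2 fold change of -0.96 (SE 0.37). TEAD2 stood at -0.53, TEAD3 at 0.01 and TEAD4 at -0.34 on the same scale, TEAD4 turning to 0.09 with library size alone. AMOT, the angiomotin that gives AMOTL2 its family name, was low but higher in both, with 169 and 104 counts in shKLF5 libraries 1 and 2, against 28 in scramble, and a log2 fold change of 1.87 (SE 0.64). Neither AMOT nor TEAD1 passed edgeR's quasi-likelihood test, with adjusted p of 0.474 and 0.504.

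Of 15 genes of the Hippo kinase core and its upstream regulators, 7 were higher in both shKLF5 libraries, 5 lower in both and 3 opposite, with a median log2 fold change of 0.10, which was 0.027 without library 1 and 0.22 without library 2. LATS2 is on this list as well. LATS1, its paralog, had 40.8 and 37.3 CPM in shKLF5 libraries 1 and 2, against 45.1 CPM in scramble, and stood at -0.21 (SE 0.36), turning to 0.22 with library size alone. MOB1A, a scaffold that activates the LATS kinases, had 64.8 and 69.2 CPM in shKLF5 libraries 1 and 2, against 125 CPM in scramble (-0.90, SE 0.34). RASSF1, a scaffold of the upstream kinases, had 9.46 and 26.3 CPM in shKLF5 libraries 1 and 2, against 6.47 CPM in scramble (1.47, SE 0.66), and FRMD6, a membrane-associated regulator, stood at 0.82 (SE 0.42). The lowest adjusted p of this list was 0.49 by edgeR's quasi-likelihood test.

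Other published YAP and TAZ targets were spread to both sides of scramble. Of 13 listed genes 11 were tested, 3 of them higher in both libraries, 5 lower in both and 3 opposite, with a median log2 fold change of -0.15. This median was -0.35 without library 1 and -0.066 without library 2, and it turned to 0.031 at a mean of at least 5 CPM and to 0.28 with library size alone. GADD45A, a DNA damage and growth arrest gene, had 99.8 and 119 CPM in shKLF5 libraries 1 and 2, against 55.6 CPM in scramble (0.98, SE 0.37). FJX1, a secreted Golgi protein, stood at 0.83 (SE 0.44). On the lower side, RBMS3, an RNA-binding protein, had 13.6 and 6.99 CPM in shKLF5 libraries 1 and 2, against 21.2 CPM in scramble (-1.04, SE 0.49). IGFBP3, a binding protein of insulin-like growth factors, had 2728 and 614 CPM in shKLF5 libraries 1 and 2, against 4360 CPM in scramble (-1.38, SE 0.72). None of these passed edgeR's quasi-likelihood test, with a lowest adjusted p of 0.499 in the list. The difference between the lists was not tested.

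Paralogs of the 10 genes were also spread to both sides. Of 14 tested, 4 were higher in both libraries, 4 lower in both and 6 opposite, with a median of 0.13, which was -0.14 without library 1 and 0.24 without library 2. NOV, the CCN family member CCN3, is a paralog of CYR61 and CTGF and lay on the lower side, with 49.1 and 25.3 CPM in shKLF5 libraries 1 and 2, against 102 CPM in scramble (-1.45, SE 0.44, adjusted p of 0.474 by edgeR's quasi-likelihood test). KCP, a secreted paralog of CRIM1, had 14 and 86 counts in shKLF5 libraries 1 and 2, against 5 in scramble (2.90, SE 1.29), and ANKRD2 stood at -0.78 (SE 0.55). Targets of SRF and its coactivators MRTF, which share CYR61 and CTGF with YAP in other cell types, had a median of -0.24 over 12 tested of 13, with 4 higher in both libraries, 5 lower in both and 3 opposite. That median was -0.14 without library 1, and it turned to 0.19 with library size alone. FOS had 36 and 49 counts in shKLF5 libraries 1 and 2, against 9 in scramble (1.82, SE 0.74). The cytoskeletal genes FLNA (-0.85, SE 0.35), VCL (-0.98, SE 0.43) and ACTB (-0.76, SE 0.40) were lower in both libraries by value. Across the 5 lists no gene was called by edgeR's quasi-likelihood test, by its legacy fit or by DESeq2. Without adjustment p was under 0.05 for 7 of the 58 distinct genes tested (12.1%), against 9.18% of all genes tested. These were AMOT, GADD45A and FOS on the higher side, where the share over all genes was 5.68%, and TEAD1, MOB1A, NOV and FLNA on the lower side, where it was 3.5%. VGLL1, NT5E, TGFB2 and MYL9 had too few reads to be tested.

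**Figure D5:**
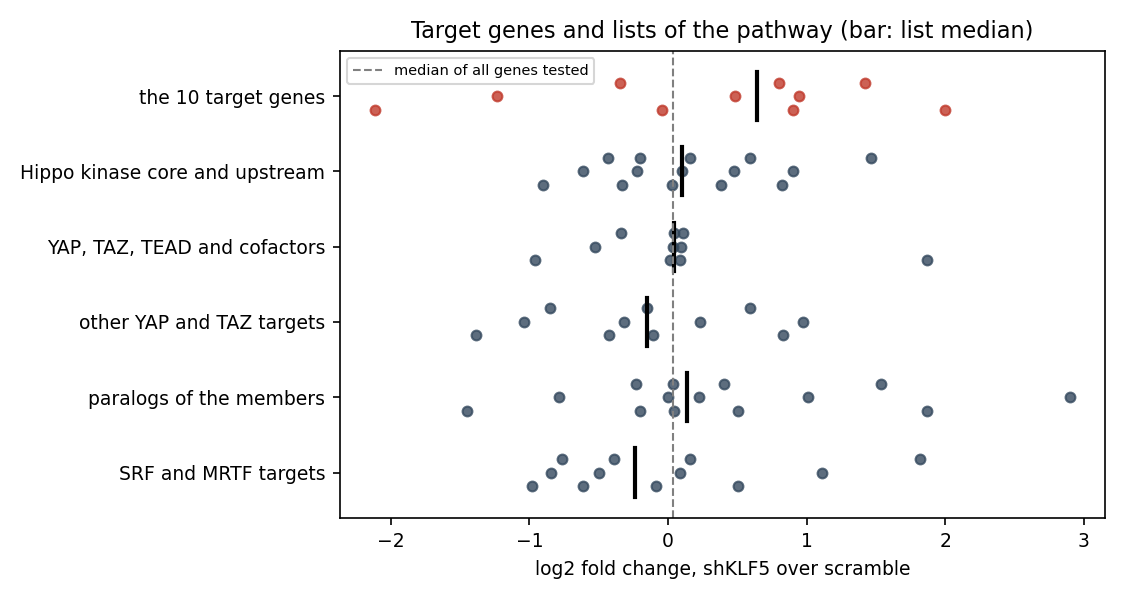
Log2 fold changes of the 10 target genes and of the tested genes of 5 lists, shKLF5 over scramble; each point is a gene, the black bar is the list's median and the dashed line the median of all genes tested. The 10 genes spread from -2.12 (F3) to 1.999 (ANKRD1), and their median of 0.64 lies to the right of the other medians, which run from -0.24 to 0.13.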

How the data were processed

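RNA was measured by sequencing in 3 libraries of TE5 cells, 2 with shKLF5 and 1 with scramble. The deposited estimated counts per transcript are not normalised, per the file headers, which are those of kallisto; the deposited TPM are counts over effective length, brought to a common sum. The submitters' processing notes name kallisto, DESeq2 and hg19, without versions; neither the transcript index nor strand use is given in the sources used here. Of 196354 transcripts 181857 (92.6%) were matched to GENCODE 29 (GRCh38); the others held 3.42% and 3.40% of counts in shKLF5 libraries 1 and 2 and 3.05% in scramble and were left out. All GENCODE transcripts of the 10 genes were in the tables.

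Estimated counts were summed per gene and rounded. edgeR 4.0.16 (R 4.3.3) was used with filterByExpr, TMM and the quasi-likelihood test (legacy = FALSE), adjusted by Benjamini-Hochberg over 20629 genes, threshold 0.05. There was 1 residual degree of freedom, with 6.86 prior degrees of freedom and a biological coefficient of variation of 32.9%. SE is the absolute log2 fold change over the square root of F. SE and p come from how the 2 shKLF5 libraries differ and from the prior shared by all genes. Single-library log2 fold changes, also behind the directions and the medians without a library, were taken with 2 as prior count. Values given as fold are plain ratios of CPM, without a prior count. Neither was tested. DESeq2 1.42.0 and limma 3.58.1 on log2(TPM + 1) or log2(TPM + 0.1) were alternatives, as were no filter, library size alone, scaling by median ratios, a mean CPM of at least 5, edgeR's legacy fit and each shKLF5 library left out. TMM factors were 1.11 and 1.10 for shKLF5 libraries 1 and 2 and 0.820 for scramble. The scripts were tested on simulated data with a dispersion set lower than that of these libraries. That test therefore does not show how many changed genes could be called here. All 10 genes are named, and from each list up to 4 genes with the smallest p, with YAP1, WWTR1, LATS1, the TEAD genes and KLF5. FEZ2, AL132780.3 and RPL39P5 were chosen after their values were seen. The genes and lists were chosen with earlier results of these data known, so no list was tested.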

Additional observations from a re-analysis of the deposited data

How the results depend on the processing

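The directions of ANKRD1, CTGF, NUAK2, LATS2, CYR61, AMOTL2, F3 and AJUBA were kept under each alternative that tested them; CTGF and AXL had too few reads for a minimum mean of 5 CPM. The number of the 10 genes called was 0 in the alternatives other than DESeq2, where it was 2, and the number of all genes called was 116 with DESeq2, 21 with edgeR's legacy fit and 0 elsewhere. AXL turned positive with library size alone (0.39) and with limma on log2(TPM + 1) (0.20) and log2(TPM + 0.1) (0.35), and CRIM1 with library size alone (0.086). Leaving out a shKLF5 library gave -0.80 to 0.45 for AXL and -1.31 to 0.23 for CRIM1, positive without library 2.

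Medians moved with the scaling, since library size alone raised the median of all genes from 0.04 to 0.47. There it was 1.07 for the 10 genes, 0.53 for the Hippo kinases, 0.47 for the coactivators, 0.28 for other targets, 0.56 for paralogs and 0.19 for SRF targets. On log2(TPM + 0.1), where that of all genes was 0.43, these were 1.03, 0.65, 0.56, 0.23, 0.61 and 0.13. On log2(TPM + 1), where that of all genes was 0.26, they were 0.64, 0.62, 0.54, 0.22, 0.31 and 0.11 in the same order. At a mean of at least 5 CPM, where that of all genes was 0.02, the 10 genes had 0.82 (8 tested), kinases 0.28 and coactivators 0.20. SRF targets had -0.27 there and other targets 0.031, the last with its sign turned. With no filter, where that of all 36019 genes was 0.33, the 10 genes had 0.60, coactivators 0.003 and SRF targets -0.28. Leaving out a shKLF5 library, which leaves no test, gave 0.34 to 0.41 for the 10 genes, 0.027 to 0.22 for kinases, -0.35 to -0.066 for other targets, -0.039 to 0.001 for coactivators, -0.14 to 0.24 for paralogs and -0.17 to -0.14 for SRF targets. The cause of the differences between the shKLF5 libraries was not tested. No paired analysis was possible because scramble has 1 library. Depth limits CTGF and AXL most.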
